A study of Mus musculus with 15 samples.

Results

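Arc, Npas4 and 8 further genes that neuronal activity switches on (Homer1, Nptx2, Ptgs2, Dusp1, Btg2, Ier2, Gadd45b and Gadd45g) were followed in bulk RNA from mouse medial prefrontal cortex (mPFC), taken by dissection. The 10 genes were chosen by name and matched from Entrez gene identifiers to mouse symbols, and all 10 were found among the 27179 identifiers of the count table and passed the filter on low counts. The 15 libraries came from C57BL/6J mice that had or had not received ABX, the usual shorthand for antibiotics, and were taken before or after fear extinction. There were 4 groups: post-extinction ABX with 4 libraries, post-extinction non-ABX with 4, pre-extinction ABX with 4 and pre-extinction non-ABX with 3 (replicates 1, 3 and 4). No transgene or engineered allele is named for any group, and the sources used here do not give the time between the extinction session and dissection, the drugs in the mixture or whether each library is 1 animal.

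Many genes of this kind, though not all, are silent or low in quiet neurons and are transcribed within minutes of synaptic activity. Calcium that enters through NMDA receptors and voltage-gated channels activates kinases that phosphorylate CREB and the partners of SRF. CREB is a transcription factor bound at the cAMP response element (CRE), and SRF is bound at the CArG box. Npas4 encodes a neuronal transcription factor that responds chiefly to calcium and controls later genes, whereas Arc, Homer1 and Nptx2 encode proteins that act at synapses. In the mPFC, genes of this class are used as marks of neurons active during fear learning and extinction.

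Each library held between 44254906 and 57929503 counts, and 16816 genes were tested together. Levels are in CPM, a gene's counts relative to its library's total on a common scale, adjusted between libraries by TMM factors of 0.969 to 1.03, and differences are log2 fold changes, so that a value of 1 is a doubling. A gene was called when its edgeR adjusted p, corrected over all tested genes, was under 0.05. Each p-value weighs a difference against the spread from library to library, which may in part be technical. All 6 excitatory neuron markers, among them Slc17a7 and Camk2a, were above 0 in every library with a summed level of 6498 to 8878 CPM. The 6 inhibitory neuron markers summed to 763 to 899.7 CPM. In bulk tissue, fewer cells of a type and less RNA per cell cannot be told apart.

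Promoter sequence was at hand for 7 of the 10 genes (8 windows, since Homer1 has 2 listed starts), taken from RefSeq on build GRCm38.p6 as 250 bases before to 50 after the transcription start; Arc, Ier2 and Nptx2 had no entry. Both strands were searched for the full CRE (TGACGTCA), for its core (TGACG, which the full CRE holds on each strand), for the AP-1 site (TGANTCA, bound by Fos and Jun proteins), for the TATA box (TATAAA) and for the CArG box. The full CRE stood in the windows of Btg2 and Dusp1, 2 of 8, against 1.79% of the 32851 promoters of the table. The core stood in 5 of 8 windows, against 20.8% of all promoters. The TATA box stood in those of Gadd45b and Gadd45g, 2 of 8, against 13.6%. No window held an AP-1 site (7.81% of all promoters did) or a CArG box (1.63%), which says only that these letters were not in these windows. A match describes the letters and shows no binding. The 5 windows with a CRE core are shown because they carry the element through which CREB acts, and the capitals mark each core or full CRE on either strand.
Npas4 (chr19:4989922-4990221, minus strand): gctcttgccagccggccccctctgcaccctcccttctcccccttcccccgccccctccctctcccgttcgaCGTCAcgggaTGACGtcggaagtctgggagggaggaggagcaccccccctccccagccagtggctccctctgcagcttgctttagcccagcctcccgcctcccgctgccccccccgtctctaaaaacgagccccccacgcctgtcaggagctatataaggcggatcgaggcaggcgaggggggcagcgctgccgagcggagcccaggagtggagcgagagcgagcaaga
Homer1, the first start (chr13:93303507-93303806, plus strand): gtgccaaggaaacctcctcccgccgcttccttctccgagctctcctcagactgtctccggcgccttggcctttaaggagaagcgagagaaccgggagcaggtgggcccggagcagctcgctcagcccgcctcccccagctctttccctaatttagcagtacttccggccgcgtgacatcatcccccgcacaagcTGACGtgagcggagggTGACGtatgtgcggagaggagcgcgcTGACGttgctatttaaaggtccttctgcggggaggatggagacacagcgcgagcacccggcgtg
Ptgs2 (chr1:150099781-150100080, plus strand): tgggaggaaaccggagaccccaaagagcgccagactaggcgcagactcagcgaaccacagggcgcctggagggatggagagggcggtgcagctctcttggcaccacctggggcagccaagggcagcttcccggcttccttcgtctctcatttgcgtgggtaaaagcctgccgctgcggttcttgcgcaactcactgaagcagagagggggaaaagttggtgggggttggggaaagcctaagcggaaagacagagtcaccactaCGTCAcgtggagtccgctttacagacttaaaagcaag
Btg2 (chr1:134079106-134079405, minus strand): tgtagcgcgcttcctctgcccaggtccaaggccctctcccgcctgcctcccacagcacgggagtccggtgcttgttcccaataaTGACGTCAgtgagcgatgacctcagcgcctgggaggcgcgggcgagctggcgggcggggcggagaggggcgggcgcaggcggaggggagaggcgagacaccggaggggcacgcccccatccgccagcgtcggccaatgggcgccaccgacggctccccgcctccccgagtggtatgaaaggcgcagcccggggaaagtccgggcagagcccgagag
Dusp1 (chr17:26508423-26508722, minus strand): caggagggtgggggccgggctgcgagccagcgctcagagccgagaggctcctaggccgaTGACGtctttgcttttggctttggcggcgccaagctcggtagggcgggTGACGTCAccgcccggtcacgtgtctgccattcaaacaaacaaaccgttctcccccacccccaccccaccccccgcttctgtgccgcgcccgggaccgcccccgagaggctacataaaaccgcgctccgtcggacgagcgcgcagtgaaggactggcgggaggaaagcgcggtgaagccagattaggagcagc
Counted from the start base as 0, the full CRE began at -166 in Btg2 and at -143 in Dusp1, and Dusp1 had another core at -191. Npas4 had cores at -179 and -169 on opposite strands, Homer1 had 3 on the same strand at -56, -40 and -14, and the only one in Ptgs2 lay past the start, at 13.

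**Figure D1:**
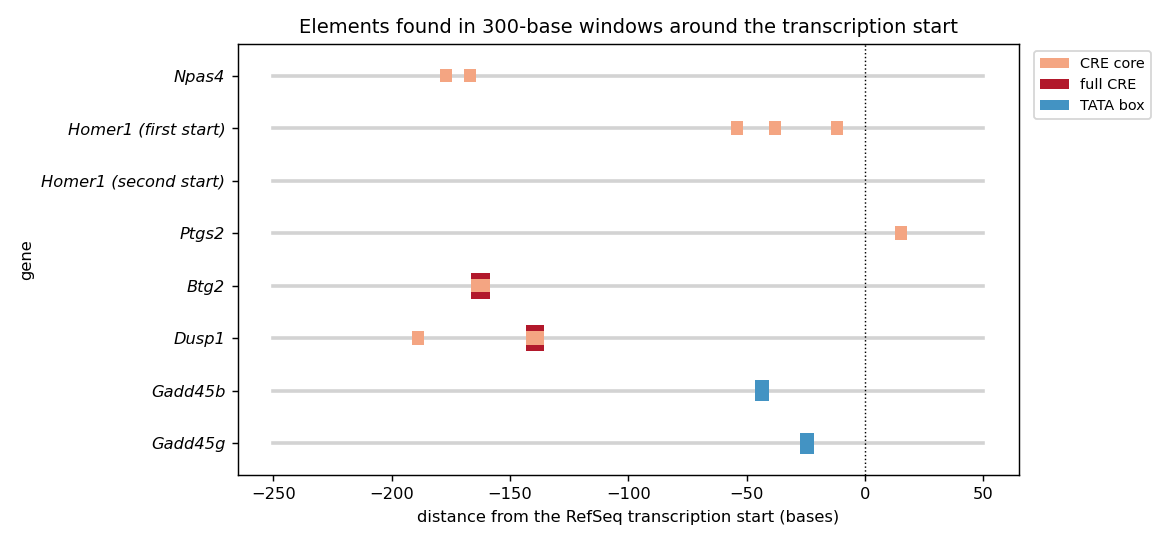
Elements found in the promoter windows of 7 genes (rows; Homer1 has 2 windows), drawn by distance in bases from the RefSeq transcription start (dotted line). Wide dark red blocks are full CREs, light blocks CRE cores and blue blocks TATA boxes; full CREs are seen in Btg2 and Dusp1, and the second Homer1 window has no element.

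The 10 genes ran over a wide range of levels and of spread. Per kilobase of the longest annotated transcript, and averaged over all libraries, Arc was highest at 72.2 CPM, followed by Homer1 at 30.3 CPM and Nptx2 at 18.9 CPM. Dusp1 (14.5 CPM), Npas4 (10.5 CPM) and Btg2 (8.18 CPM) lay between, and Gadd45b (5.67 CPM), Ptgs2 (5.07 CPM), Gadd45g (3.13 CPM) and Ier2 (2.44 CPM) were lowest on this per-kilobase scale. The Homer1 value mixes transcripts of different length, since counts per gene do not separate the long scaffold forms from the short Homer1a form that activity induces. All other levels below are in CPM without division by length.

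Arc, Npas4, Btg2, Ier2 and Dusp1 differed between libraries of the same group more than almost any other gene. Their SD within groups on the log2 scale was 0.66, 0.53, 0.52, 0.50 and 0.44, and exceeded that of 99.9%, 99.7%, 99.7%, 99.6% and 99.1% of genes with a mean of at least 1 CPM. Arc spanned 7.37-fold from its lowest to its highest library, Btg2 5.55-fold and Npas4 5.35-fold. Homer1, Ptgs2, Gadd45b and Nptx2 were far steadier, with an SD within groups of 0.15 to 0.20 and a span of 1.68-fold to 1.89-fold. Gadd45g lay between these sets at 0.36. In terms of the model, the coefficient of variation between libraries was 0.341 for Arc and 0.105 for Ptgs2, against 0.112 in common over all genes, so a given fold change could be told from the spread far more readily for Ptgs2, Nptx2, Homer1 and Gadd45b than for Arc, Npas4 and Btg2.

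**Figure D2:**
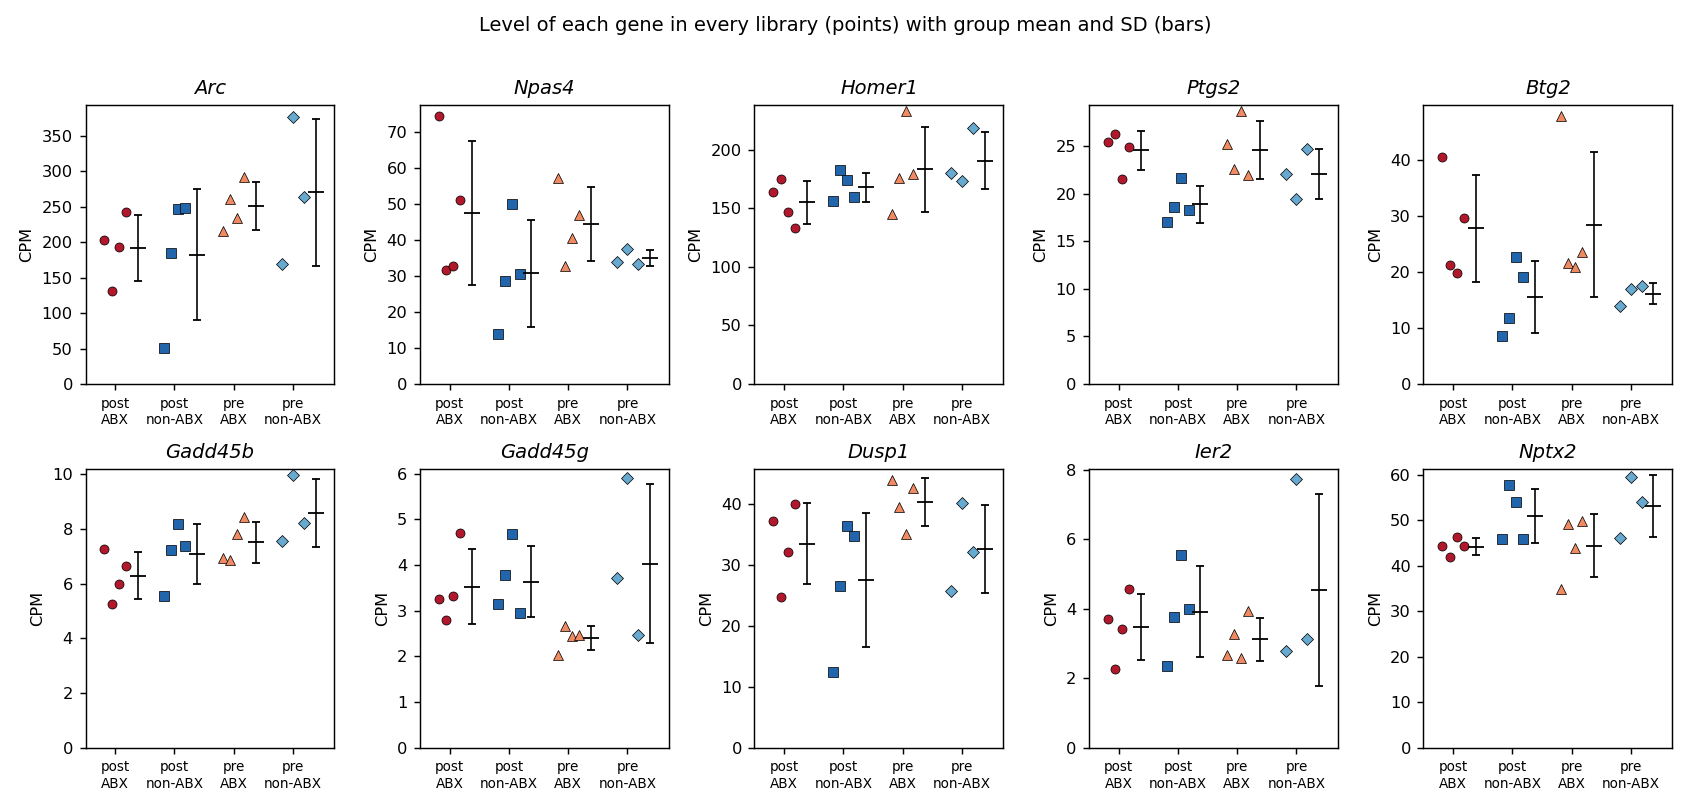
CPM of each gene in each of the 15 libraries, with a panel for each gene, with groups in the order post-extinction ABX, post-extinction non-ABX, pre-extinction ABX and pre-extinction non-ABX. Points are libraries, and the bars beside them are the group mean with its SD; the low post-extinction non-ABX library in Arc, Npas4, Btg2 and Dusp1 is replicate 1.

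ABX treatment was compared with no ABX at each stage and, over all 15 libraries, averaged over both stages, to ask how activity-regulated transcripts differed with the treatment. Btg2 and Ptgs2 had positive differences with ABX at both stages and the smallest p-values of the set in the averaged comparison, where they did not pass the test (edgeR adjusted p = 0.0679 for Btg2 and 0.0681 for Ptgs2). Npas4 and Dusp1 had positive differences, Nptx2, Gadd45b, Gadd45g and Ier2 negative ones, and Arc and Homer1 values near 0. None of the 10 was called in edgeR in any ABX comparison. Over all tested genes the share called was 0.00595% before extinction, 0.0178% after it and 0.624% in the averaged comparison. At an unadjusted p under 0.05, edgeR had 3 of 10 before (16.0% of all genes), 2 of 10 after (13.3%) and 5 of 10 averaged (30.6%). DESeq2 called 0 of 10 before, 0 after and 2 averaged, namely Ptgs2 (DESeq2 adjusted p = 0.0211) and Btg2 (0.0339).

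Btg2 (Entrez 12227, chr1:134074865-134079155 on GRCm38.p6, the build of all positions here) encodes an antiproliferative protein that recruits the deadenylase complex to messenger RNA, and its promoter above holds a full CRE. It had 40.6, 21.2, 19.9 and 29.7 CPM in post-extinction ABX libraries, against 8.64, 11.8, 22.8 and 19.1 CPM in post-extinction non-ABX libraries. Before extinction it had 47.9, 21.6, 20.9 and 23.7 CPM in ABX libraries, against 14.0, 17.0 and 17.6 CPM in non-ABX libraries. The groups overlapped after extinction and did not overlap before it, a pattern that 3.62% of all tested genes showed in the same direction. The log2 fold change was 0.84 (SE 0.31) after extinction, 0.82 (SE 0.34) before it and 0.83 (SE 0.23, 95% confidence interval 0.34 to 1.32) averaged. The highest library of each ABX group, replicate 1, weighed heavily here: without pre-extinction ABX replicate 1 the difference before extinction was 0.45 and the averaged one 0.64, and without post-extinction ABX replicate 1 the difference after extinction was 0.60. Those 2 libraries also held the most blood cell transcripts of their groups, with marker sums of 9.26 CPM after and 1.75 CPM before extinction. Post-extinction non-ABX replicate 2 held the most of its own group (1.82 CPM) and had the second lowest Btg2 level of all 15 libraries (11.8 CPM). A part of blood cells in the Btg2 level was not tested beyond the omission of these 3 libraries, given below. Replicate 1 of each ABX group also had the highest astrocyte and inhibitory neuron marker sums of its group. It had the lowest excitatory neuron sum there as well, and a part of these cell types was not tested.

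Ptgs2 (Entrez 19225, chr1:150100031-150108234) encodes cyclooxygenase-2, the inducible enzyme of prostaglandin synthesis, which excitatory cortical neurons express. It had 25.4, 26.3, 21.6 and 24.9 CPM in post-extinction ABX libraries, against 17.0, 18.6, 21.6 and 18.3 CPM in post-extinction non-ABX libraries. Only post-extinction non-ABX replicate 3 reached the lowest ABX library. Before extinction it had 25.2, 22.6, 28.7 and 22.0 CPM in ABX libraries, against 22.0, 19.4 and 24.7 CPM in non-ABX libraries, and these ranges overlapped. The log2 fold change after extinction was 0.38 (SE 0.10, adjusted p = 0.186 in edgeR), with 0.16 (SE 0.11, adjusted p = 0.429) before it and 0.27 (SE 0.076) averaged. With each library's trend of expression on transcript GC content removed, the averaged value was 0.14 (adjusted p = 0.112) and the value before extinction 8.1e-05.

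Npas4 (Entrez 225872, chr19:4984353-5003439) is the transcription factor of the set. It had 74.5, 31.8, 32.8 and 51.1 CPM in post-extinction ABX libraries, against 13.9, 28.8, 49.98 and 30.6 CPM in post-extinction non-ABX libraries. Before extinction it had 57.2, 33.0, 40.6 and 47.0 CPM in ABX libraries, against 33.9, 37.6 and 33.5 CPM in non-ABX libraries. The ranges overlapped at both stages, and the pre-extinction non-ABX libraries were the closest together of any group. Its log2 fold change was 0.63 (SE 0.31) after extinction, 0.34 (SE 0.34) before it and 0.49 (SE 0.23, edgeR adjusted p = 0.163) averaged. Dusp1 (Entrez 19252, chr17:26505591-26508472), a phosphatase that switches off MAP kinases, showed the next largest positive difference, 0.29 averaged (SE 0.18, adjusted p = 0.27).

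Nptx2 (Entrez 53324, chr5:144545887-144557478), a secreted pentraxin that gathers AMPA receptors at excitatory synapses on interneurons, had 44.4, 41.8, 46.2 and 44.3 CPM in post-extinction ABX libraries, against 45.9, 57.7, 53.9 and 45.8 CPM in post-extinction non-ABX libraries. Before extinction it had 34.8, 49.1, 43.8 and 49.8 CPM in ABX libraries, against 45.98, 59.5 and 54.0 CPM in non-ABX libraries. Post-extinction ABX libraries lay close together at the lower edge of the non-ABX range. Averaged over both stages the difference was -0.23 (SE 0.081, adjusted p = 0.0903 in edgeR), which became 0.0058 when the GC-content trend was removed. Arc, whose protein forms capsid-like particles and promotes removal of AMPA receptors from synapses, had an averaged difference of -0.017 (SE 0.26, 95% confidence interval -0.56 to 0.53), which became 0.24 without the GC-content trend; this interval does not show that Arc was alike in both arms. Homer1 (Entrez 26556, chr13:93303757-93405129), a scaffold that ties metabotropic glutamate receptors to the postsynaptic density, had an averaged difference of -0.087 (SE 0.091, adjusted p = 0.519).

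The Gadd45 genes encode small stress and activity proteins that bind kinases of the p38 pathway and have been tied to DNA demethylation in active neurons. Gadd45g (Entrez 23882, chr13:51846675-51848475) had 3.26, 2.80, 3.32 and 4.71 CPM in post-extinction ABX libraries, against 3.15, 3.78, 4.67 and 2.94 CPM in post-extinction non-ABX libraries. Before extinction it had 2.04, 2.67, 2.46 and 2.46 CPM in ABX libraries, against 3.71, 5.91 and 2.47 CPM in non-ABX libraries. Pre-extinction ABX was thus the lowest group, and only replicate 4 of the pre-extinction non-ABX libraries fell within its range. Its log2 fold change with ABX was -0.045 (SE 0.23) after extinction and -0.74 (SE 0.25, edgeR adjusted p = 0.311) before it; the second value was -0.37 without pre-extinction non-ABX replicate 3 and -0.36 without the GC-content trend. Averaged over both stages it was -0.39 (SE 0.17, adjusted p = 0.13 in edgeR). Gadd45b had an averaged difference of -0.18 (SE 0.096, adjusted p = 0.207), which was 0.016 without the GC-content trend. Ier2 (Entrez 15936, chr8:84661331-84662852), a nuclear protein of the immediate early class, had -0.35 (SE 0.23, adjusted p = 0.296), and its highest library, pre-extinction non-ABX replicate 3 with 7.73 CPM, stood above all other libraries, which ran from 2.26 to 5.56 CPM.

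**Figure D3:**
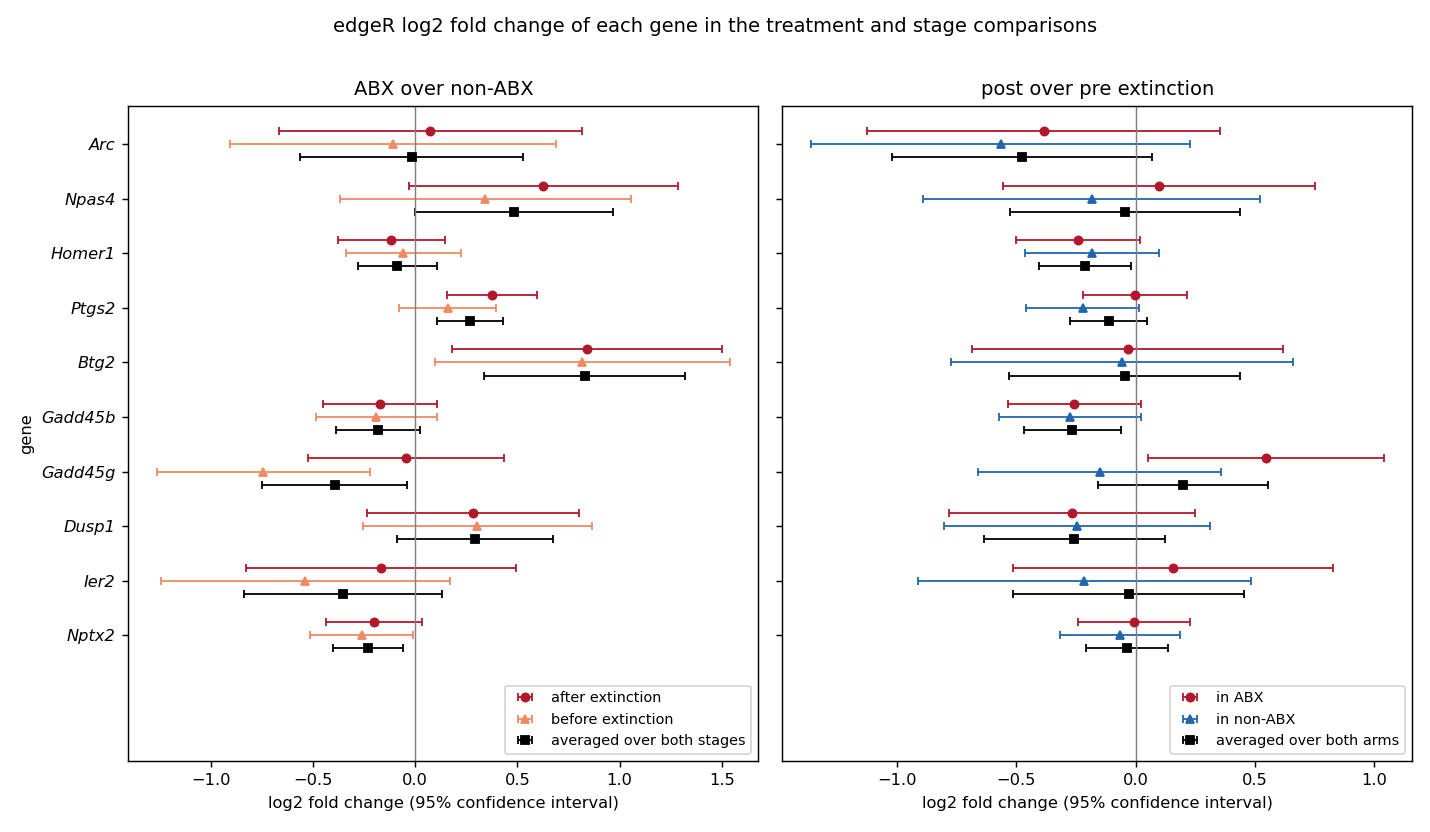
edgeR log2 fold change of each gene (rows) with its 95% confidence interval, for ABX over non-ABX (left) and post over pre extinction (right). Red circles, coloured triangles and black squares stand for the single and averaged comparisons named in the legends; with ABX, Btg2 has averaged 0.83 and Ptgs2 0.27, and 0 of 10 genes passed the adjusted threshold in any of the 6 comparisons.

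The stage comparison set libraries taken after extinction against those taken before it, within each arm and averaged over both, to ask how the genes differed once extinction had taken place. In non-ABX libraries all 10 genes had a negative difference, with a median log2 fold change of -0.20, while 50.9% of all tested genes were negative with a median of -0.0029. Arc had the largest difference there, -0.57 (SE 0.38, edgeR adjusted p = 0.896). Without post-extinction non-ABX replicate 1 the value in non-ABX was 0.058 for Npas4, 0.14 for Btg2 and -0.0030 for Dusp1. Arc, Homer1, Ptgs2, Gadd45b and Dusp1 stayed negative in non-ABX in each fit that left out 1 library. Several of the genes varied together from library to library, so their signs are not separate observations. In ABX libraries 7 of 10 were negative (median -0.020) against 49.0% of all tested genes, and averaged over both arms 9 of 10 were (median -0.079) against 49.8%; with the GC-content trend removed, these counts were 10 in non-ABX, 8 in ABX and 8 averaged, and with RLE scaling 10, 7 and 9. With the replicate number as a block they were 9, 6 and 6, and without the 3 libraries richest in blood cell transcripts, an omission chosen after seeing the data, 9, 7 and 8. None of the 10 was called in edgeR or in DESeq2 in any of these 3 comparisons, in which edgeR called 0.0951% of all genes in ABX, 0% in non-ABX and 0.963% averaged. At an unadjusted p under 0.05, edgeR had 1 of 10 in ABX (16.6% of all genes), 0 of 10 in non-ABX (4.94%) and 2 of 10 averaged (20.4%), none of which is above the share of all genes.

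Arc (Entrez 11838, chr15:74669081-74672570) had 202, 130.4, 193 and 242 CPM in post-extinction ABX libraries, against 216, 261, 233 and 292 CPM in pre-extinction ABX libraries. In non-ABX libraries it had 51.1, 184, 246.5 and 248 CPM after extinction, against 169, 376 and 264 CPM before it. The ranges overlapped in both arms, and post-extinction non-ABX replicate 1 was the lowest library of all, far below the next. The stage difference of Arc was -0.39 (SE 0.35, adjusted p = 0.525 in edgeR) in ABX and -0.48 (SE 0.26, adjusted p = 0.285) averaged over the arms. The group means were 192 CPM in post-extinction ABX, 182 CPM in post-extinction non-ABX, 251 CPM in pre-extinction ABX and 269.9 CPM in pre-extinction non-ABX libraries, so both pre-extinction groups stood above both post-extinction groups, and the ranges of neighbours in that order overlapped. Without pre-extinction non-ABX replicate 3, the highest library, the difference in non-ABX was -0.25, and without replicate 1 of that group it was -0.80. These were the ends of the range over the 7 fits that each left out 1 library of this arm. The fit without post-extinction non-ABX replicate 1 lay between them.

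Gadd45b (Entrez 17873, chr10:80930091-80932204) showed the smallest p of the set for stage. It had 7.26, 5.27, 5.98 and 6.65 CPM in post-extinction ABX libraries, against 6.93, 6.88, 7.81 and 8.43 CPM in pre-extinction ABX libraries. In non-ABX libraries it had 5.57, 7.24, 8.19 and 7.36 CPM after extinction, against 7.55, 9.96 and 8.21 CPM before it. In each arm 3 of the 4 post-extinction libraries lay below every pre-extinction library. Its averaged difference was -0.27 (SE 0.096, adjusted p = 0.159 in edgeR), and with the GC-content trend removed it was -0.40 and passed the test (adjusted p = 0.03). Homer1 ran from 133.5 to 175 CPM in post-extinction ABX and from 156 to 183 CPM in post-extinction non-ABX libraries, against 145 to 233 CPM in pre-extinction ABX and 173.5 to 218 CPM in pre-extinction non-ABX libraries, with an averaged difference of -0.21 (SE 0.09, adjusted p = 0.214) that was -0.056 without the GC-content trend.

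Gadd45g had a positive difference in the ABX arm. All 4 post-extinction ABX libraries were above all 4 pre-extinction ABX libraries, which 2.69% of tested genes showed in that direction, and the difference was 0.55 (SE 0.23, adjusted p = 0.27 in edgeR); in the non-ABX arm the value was -0.15 (SE 0.24). Dusp1 had 37.2, 24.7, 32.1 and 39.9 CPM in post-extinction ABX libraries, against 43.9, 39.5, 35.1 and 42.6 CPM in pre-extinction ABX libraries. In the non-ABX arm it had 12.4, 26.5, 36.4 and 34.8 CPM after extinction, against 25.7, 40.1 and 32.1 CPM before it, with an averaged difference of -0.26 (SE 0.18, adjusted p = 0.384). Npas4, Btg2, Ier2 and Nptx2 had averaged differences between -0.045 and -0.029, and Ptgs2 had -0.11 (SE 0.076, adjusted p = 0.371), each with an interval that spans 0; the value for Ptgs2 was 0.029 without the GC-content trend.

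Whether the stage difference itself depended on ABX was tested as the interaction of both factors, and 0 of 10 genes were called by edgeR or DESeq2 (0% of all genes in edgeR). At an unadjusted p under 0.05 edgeR had 0 of 10, against 2.06% of all genes. Gadd45g had the largest interaction, 0.70 on the log2 scale (SE 0.33, 95% confidence interval -0.012 to 1.41, edgeR adjusted p above 0.99), and Homer1 the lowest, -0.059 (SE 0.18). For Arc the interval ran from -0.91 to 1.27 and for Npas4 from -0.68 to 1.25, so these libraries leave room for a difference of 1 on the log2 scale, a doubling, in either gene.

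Several of the genes also varied together from library to library. Post-extinction non-ABX replicate 1 was the lowest of all 15 libraries in Arc, Npas4, Btg2, Dusp1 and Ptgs2, whereas in Homer1 it ranked 12 of 15 from the top, with 156 CPM. Pre-extinction non-ABX replicate 3 was the highest of all in Arc, Ier2, Gadd45b, Gadd45g and Nptx2 and in the middle for Npas4. Post-extinction ABX replicate 1 was highest in Npas4 and pre-extinction ABX replicate 1 in Btg2, while both were ordinary in Arc.

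**Figure D4:**
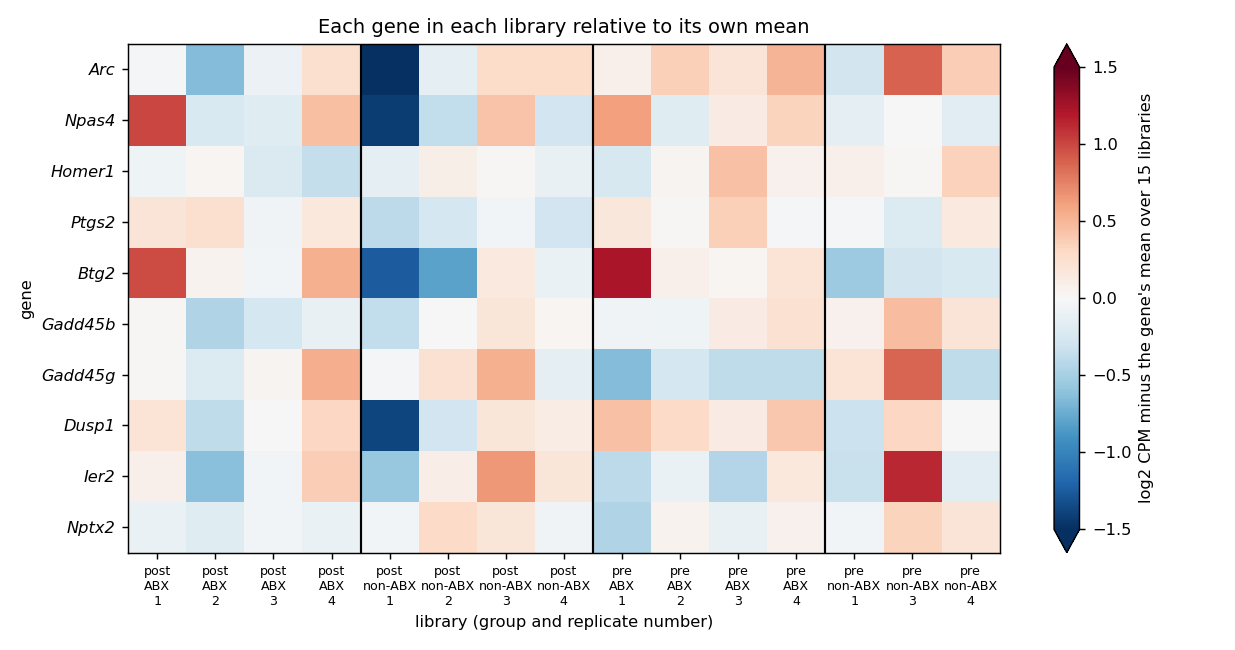
log2 CPM of each gene (rows) in each library (columns, by group and replicate number) minus that gene's mean over the 15 libraries; red is above and blue below the gene's mean, and colours end at 1.5 on either side. Post-extinction non-ABX replicate 1 is dark blue in Arc, Npas4, Btg2 and Dusp1 but pale in Homer1, Gadd45g and Nptx2.

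Likeness was measured as the Pearson correlation r of deviations from the group means over the 15 libraries, among 14109 genes with a mean of at least 1 CPM, so it holds no treatment or stage difference. The points share libraries, depth and RNA preparation, and the genes named are those with the highest r, so the values are a description. Dusp1 was the gene most like Arc of all 14109 (r = 0.965, Spearman rho 0.886, and r = 0.908 without the 2 libraries farthest out in Arc). Nr4a1, an orphan nuclear receptor of the same class, was next (r = 0.946), then Trib1 (0.855), Gadd45b (0.840), Egr2 (0.833), Csrnp1 (0.823) and Myo1e (0.820). The 2 libraries farthest out in Arc were replicate 1 of post-extinction and of pre-extinction non-ABX. Without them r was 0.873 for Nr4a1, 0.761 for Gadd45b and 0.739 for Csrnp1. It fell to 0.543 for Trib1, 0.573 for Egr2 and 0.544 for Myo1e, so these values rest much on those libraries. Of the other members, Ier2 ranked 11 for Arc, Npas4 49, Btg2 230 and Nptx2 458.

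The genes nearest to Npas4 were in part those named for Arc (Egr2, Dusp1 and Gadd45b) and in part others. Fos was first (r = 0.922, rho 0.914, r = 0.884 without the 2 farthest libraries) and Btg2 second (r = 0.876, rho 0.925, r = 0.818 without them). Egr2 (0.874), Letm2 (0.819), Dmgdh (0.814), Dusp1 (0.814), Ccn1 (0.814) and Gadd45b (r = 0.786, rank 9) followed. Without the 2 farthest libraries r was 0.795 for Egr2, 0.807 for Letm2, 0.793 for Dmgdh and 0.802 for Ccn1. It fell to 0.588 for Dusp1 and 0.630 for Gadd45b. Arc ranked 32 for Npas4 with r = 0.695, which was 0.318 without the 2 libraries farthest out in Npas4. With Arc, Homer1 had r = 0.018 and Ptgs2 r = 0.11, and Ptgs2 had r = 0.414 with Npas4 (0.117 without the 2 farthest libraries).

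**Figure D5:**
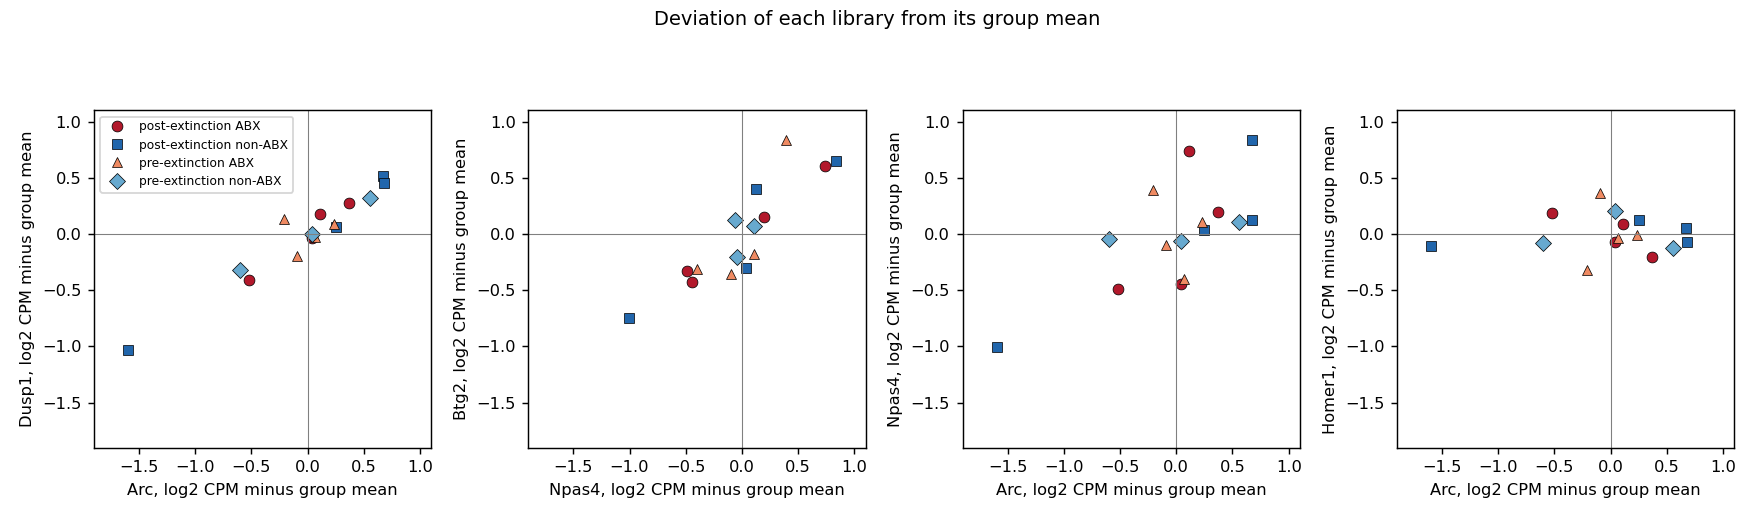
Deviation of each library from its group mean in log2 CPM for 4 pairs of genes, with colour and shape giving the group. Arc and Dusp1 (r = 0.965) and Npas4 and Btg2 (r = 0.876) fall along a line, Arc and Npas4 do so less (r = 0.695), and Arc and Homer1 do not (r = 0.018); the point at the far left in Arc is post-extinction non-ABX replicate 1.

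Some other activity-regulated genes did pass the stage test. Of 24 further transcription factors of this class, 5 fell after extinction in the averaged comparison and 0 rose (median log2 fold change -0.16, against 0.0012 over all tested genes, of which 0.963% were called). Lists here and below were chosen with earlier results of these data known, so counts set beside all genes are a description. Egr2 averaged 9.14 ± 2.52 CPM in post-extinction ABX and 6.67 ± 2.41 CPM in post-extinction non-ABX libraries (SD, n = 4 each), against 16.5 ± 2.55 CPM in pre-extinction ABX (n = 4) and 12.4 ± 2.02 CPM in pre-extinction non-ABX libraries (n = 3), a difference of -0.88 (SE 0.18, edgeR adjusted p = 0.0322). Klf10, a zinc finger factor, had -0.65 (SE 0.12, edgeR adjusted p = 0.0212), and the others called were Nr4a2 (-0.46), Nr4a3 (-0.62) and Nfil3 (-0.35). Over the 15 fits that each left out 1 library, the number of these factors called ran from 0 to 5; it was 0 without pre-extinction ABX replicate 3, pre-extinction non-ABX replicate 1 or 4, or post-extinction non-ABX replicate 3. Klf10 was called in 11 of these 15 fits and Egr2 in 6. Egr2 kept a value between -0.95 and -0.76 in them, with adjusted p from 0.0247 to 0.105.

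Of 30 further effectors of this class, 3 fell and 0 rose over the averaged stage comparison (median -0.22). They were Gpr3, Tiparp and Gadd45a, the third Gadd45 gene. Gpr3, a receptor that raises cAMP without a ligand, had -0.48 (SE 0.10, edgeR adjusted p = 0.033). Tiparp, of the poly(ADP-ribose) polymerase family, had -0.48 (edgeR adjusted p = 0.0482). Gadd45a averaged 3.55 ± 0.863 CPM in post-extinction ABX and 2.95 ± 0.607 CPM in post-extinction non-ABX libraries (SD, n = 4 each), against 4.96 ± 0.948 CPM in pre-extinction ABX (n = 4) and 4.75 ± 0.278 CPM in pre-extinction non-ABX libraries (n = 3), a difference of -0.59 (SE 0.13, edgeR adjusted p = 0.0417). The 3 Gadd45 genes thus had averaged stage values of -0.59, -0.27 and 0.20 for Gadd45a, Gadd45b and Gadd45g, and only the first was called by edgeR without a GC correction. At an unadjusted p under 0.05, 17 of the 30 effectors were lower, against 11.8% of all genes in that direction. With the list chosen in the way stated, this is no test of the class. With 1 library left out, between 0 and 10 effectors were called lower (0 in 8 of 15 fits, 10 without pre-extinction non-ABX replicate 3), and Gadd45a was called in 5 of these 15 fits.

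With ABX, averaged over both stages, edgeR called Inhba alone of these 54 genes, where 0.624% of all tested genes were called. DESeq2 called 1 factor lower, 1 effector higher and 4 effectors lower, among 1977 genes in all. Removal of the GC-content trend gave 2 factors higher and 1 lower, and 1 effector higher and 2 lower. The replicate block gave 1 factor and 2 effectors lower. Inhba, which encodes the activin beta A subunit, averaged 3.38 ± 0.512 CPM in post-extinction ABX libraries against 5.12 ± 0.666 CPM in post-extinction non-ABX libraries (SD, n = 4 each), and 3.62 ± 0.714 CPM in pre-extinction ABX (n = 4) against 5.46 ± 0.171 CPM in pre-extinction non-ABX libraries (n = 3). Its difference was -0.59 (SE 0.10, edgeR adjusted p = 0.0336). It was called in 9 of the 15 fits that left out 1 library, and not without the 3 libraries richest in blood cell transcripts (-0.53, adjusted p = 0.227). Among the transcription factors the smallest p belonged to Egr3 (-0.51, adjusted p = 0.0683), Klf2 (-0.39) and Fosb (0.27), so related factors had differences of opposite sign, as Btg2 and Nptx2 did among the 10.

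Glucocorticoid-induced genes were examined because Dusp1 is also induced by that hormone. Of 15 such genes, 3 rose after extinction in the averaged comparison and 0 fell: Fkbp5 (0.51, SE 0.097, edgeR adjusted p = 0.0216), Hif3a (0.72, adjusted p = 0.0216) and Sult1a1 (0.51, adjusted p = 0.0257). In the ABX arm alone Hif3a (1.22, edgeR adjusted p = 0.0183) and Fkbp5 (0.78, adjusted p = 0.0329) rose, where 0.0951% of all tested genes were called. Of the 8 fits that each left out 1 library, Hif3a was called in 3 and Fkbp5 in 2 in that arm. Neither was called there without the 3 libraries richest in blood cell transcripts (edgeR adjusted p = 0.0778 for Hif3a and 0.0881 for Fkbp5). Their log2 fold changes in that fit were 1.31 for Hif3a and 0.78 for Fkbp5, so the values themselves were not smaller. In the averaged comparison 6 of 15 were negative (median 0.018), against 49.8% of all tested genes. There 3 were lower at an unadjusted edgeR p under 0.05, against 11.8% of all genes in that direction. In the non-ABX arm 9 of 15 were negative, against 50.9% of all genes. In the ABX arm 5 of 15 were negative, against 49.0% of all genes, and Dusp1 had -0.27 there. With 1 library left out, between 0 and 6 of the list were called higher in the averaged comparison, and the 3 genes named were each called in 8 of 15 fits.

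Cell type markers moved with some of these results, and their part in them was not tested except where a value is given. Of 7 blood cell markers 6 were in the table, and their summed level ran from 0.556 to 9.26 CPM in post-extinction ABX, from 0.0211 to 1.82 CPM in post-extinction non-ABX, from 0.242 to 1.75 CPM in pre-extinction ABX and from 0.207 to 0.453 CPM in pre-extinction non-ABX libraries. In post-extinction non-ABX libraries 0 of these 6 had counts in every library, and in each other group 3 did. The highest sums were those of post-extinction ABX replicate 1, post-extinction non-ABX replicate 2 and pre-extinction ABX replicate 1. Without these 3 libraries the averaged ABX difference of Btg2 was 0.47 and that of Npas4 0.25, while that of Ptgs2 was 0.25. Brain endothelial markers, all 8 of them above 0 in every library, summed to 155 to 221 CPM in post-extinction ABX against 226 to 248 CPM in post-extinction non-ABX, and to 143 to 216 CPM in pre-extinction ABX against 211 to 266 CPM in pre-extinction non-ABX libraries. In the averaged ABX comparison 3 of these 8 fell and all 8 were negative (47.5% of all tested genes were), as were 5 of 6 markers of pericytes and vascular smooth muscle, of which 3 fell. Of these 2 lists, 0 markers were called without the 3 libraries richest in blood cell transcripts, with 8 of 8 and 5 of 6 still negative. With 1 library left out, between 0 and 8 endothelial markers were called lower. For pericytes and vascular smooth muscle that number ran from 0 to 4, and DESeq2 on all libraries called 7 and 4. The 6 excitatory neuron markers summed to 7174 to 8103 CPM in post-extinction ABX against 7662 to 8686 CPM in post-extinction non-ABX, and to 6498 to 7619 CPM in pre-extinction ABX against 7148 to 8878 CPM in pre-extinction non-ABX libraries. In the averaged ABX comparison 5 of these 6 were negative and 0 were called, with 3 lower at an unadjusted p under 0.05. The 6 astrocyte markers summed to 5118 to 5485 CPM in post-extinction ABX against 4829 to 5038 CPM in post-extinction non-ABX libraries, which did not overlap, and to 5112 to 7179 CPM in pre-extinction ABX against 4854 to 5597 CPM in pre-extinction non-ABX libraries, which did; 4 of 6 were positive and 0 called. The 7 markers of striatal projection neurons, cells of a region beneath the cortex, were low (106 to 141 CPM in sum), and 6 of 7 were positive with ABX at each stage, with 0 called.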

How the data were processed

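RNA of dissected mPFC was made into libraries with a SMARTer kit that does not keep strand, per the labels' protocols, which also speak of sorted cells although the source given is dissected tissue. The deposited table holds the authors' raw counts per Entrez identifier, unnormalized, in 15 library columns. The submitters' processing notes name STAR 2.3.0, CASAVA 1.8.2 and mm10; the sources used here do not give the counting program. Symbols came from a RefSeq GRCm38.p6 table and matched 25275 of 27179 identifiers (99.7% of counts). No other RefSeq gene overlaps any of the 10 genes.

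The test was that of edgeR 4.0.16, run in R 4.3.3: filterByExpr (minimum count 10, minimum total 15), TMM scaling, and a quasi-likelihood model of 4 group means over all 15 libraries, after the pipeline was tested on simulated data. The 7 contrasts were tested two-sided with Benjamini-Hochberg adjustment over 16816 genes. The averaged contrasts use the same libraries as the single ones, which also share groups with each other, so they are not independent. log2 CPM used a prior count of 2. The SE of a log2 fold change is its size over the root of F. For the further lists, the 3 genes of smallest p in a contrast and every called gene could be named; for likeness, the 5 highest genes outside the 10. The 10 genes, the lists and these rules were chosen with earlier results of these data known. DESeq2 1.42.0, RLE scaling, no filter, the replicate number as a block, removal of the GC-content trend (fitted in each library as a spline, 5 degrees of freedom, on 91.2% of tested genes and all 10 members) and omission of each library were tried as alternatives.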

Additional observations from a re-analysis of the deposited data

Results flagged for a closer look

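Btg2 in pre-extinction ABX replicate 1 had 47.9 CPM, far from the other 3 libraries of its group, which had 21.6, 20.9 and 23.7 CPM. It was picked out because its gap to the nearest library was a larger part of the group's range than Dixon's 95% critical value allows. Such a library was found in 1 of 30 groups of 4 libraries tested, and chance gives about 1 in 20. The summed level of blood cell markers in that library was 1.75 CPM, against 0.242 to 0.278 CPM in the other 3. Its astrocyte markers summed to 7179 CPM, against 5112 to 5778 CPM in the other 3. Its inhibitory neuron sum, 899.7 CPM, was the highest of its group. Its excitatory neuron and brain endothelial sums, 6498 and 143 CPM, were the lowest of its group. The part of these cell types in the Btg2 level was not tested. The log2 fold change of Btg2 with ABX before extinction was 0.82 with this library and 0.45 without it.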

How the results depend on the processing

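Over the alternatives, edgeR or DESeq2 called a member only in the averaged comparisons. For averaged ABX, DESeq2 called 2 (Btg2 and Ptgs2), removal of the GC-content trend 1 (Btg2), and omission of 1 library between 0 and 3; the 3 were Ptgs2, Btg2 and Nptx2, without pre-extinction ABX replicate 4, and Ptgs2 was also called without pre-extinction non-ABX replicate 4. For averaged stage, removal of the GC-content trend called 1 (Gadd45b). The averaged ABX value was positive under every setting run for Btg2 (0.64 to 0.95 when 1 library was left out, and 0.47 without the 3 libraries richest in blood cell transcripts), for Npas4 (0.33 to 0.65, and 0.25) and for Ptgs2 (0.23 to 0.32, and 0.14 with the GC-content trend removed). Where a value below changed sign or a count moved, the cause was not tested.

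Counts over all genes moved more. For averaged ABX, edgeR called 105, against 1977 with DESeq2, 644 without the GC-content trend, 666 with the replicate block, 1 without the 3 libraries richest in blood transcripts, and 4 to 3057 when 1 library was left out (lowest without pre-extinction non-ABX replicate 3, highest without pre-extinction ABX replicate 4). For averaged stage it called 162, against 704, 342, 96, 83, and 14 to 2262 under the same settings (lowest without pre-extinction non-ABX replicate 4, highest without its replicate 3). For ABX after extinction it called 3, against 182 with DESeq2, 59 without the GC-content trend, 1 without the 3 libraries, and 0 to 6. For ABX before extinction it called 1, against 15 with DESeq2, 2 with no filter, and 1 to 28. For stage in ABX it called 16, against 282 with DESeq2, 77 without the GC-content trend, 2 without the 3 libraries, and 3 to 237. For stage in non-ABX it called 0, against 19 with DESeq2, 2 with no filter, 2 without the GC-content trend, and 0 to 1. The interaction had 0, and 4 with DESeq2. RLE scaling moved none of these counts by over 1.5 times.

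Correlations between the deviations of libraries with the same replicate number ran from -0.49 to 0.37, with both signs among them. They do not settle whether the numbers pair anything, and the labels do not say. With the replicate block no member was called; log2 fold changes turned sign for Arc (0.10) in averaged ABX, for Npas4 (0.013), Btg2 (0.020) and Ier2 (0.0087) in averaged stage, for Nptx2 (0.0058) in stage in ABX, for Btg2 (0.068) in stage in non-ABX, and for Btg2 (-0.096) and Gadd45b (-0.013) in the interaction.

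With the GC-content trend removed, signs turned for Arc (0.24), Gadd45b (0.016) and Nptx2 (0.0058) in averaged ABX, for Gadd45g (0.18) and Ier2 (0.075) in ABX after extinction, and for Arc (0.23), Gadd45b (0.049) and Nptx2 (0.012) before it. They also turned for Ptgs2 (0.029) in averaged stage, for Npas4 (-0.061), Ptgs2 (0.17) and Ier2 (-0.11) in stage in ABX, and for Homer1 (0.015), Gadd45b (-0.066) and Nptx2 (-0.013) in the interaction. Without the 3 libraries richest in blood cell transcripts, chosen after seeing the data, they turned for Arc (0.0048) in averaged ABX, Gadd45g (0.011) in ABX after extinction, Homer1 (0.039) before it, Btg2 (0.077) in averaged stage, Npas4 (-0.058) and Btg2 (0.097) in stage in ABX, Btg2 (0.056) in stage in non-ABX, and Gadd45b (-0.083) in the interaction.

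Omission of 1 library gave ranges that cross 0 for Arc in averaged ABX (-0.17 to 0.15); for Arc (-0.24 to 0.26), Gadd45g (-0.22 to 0.097) and Ier2 (-0.35 to 0.049) in ABX after extinction; and for Arc (-0.35 to 0.21), Homer1 (-0.19 to 0.059) and Ier2 (-0.79 to 0.085) before it. In averaged stage they were those of Npas4 (-0.21 to 0.078), Btg2 (-0.16 to 0.15), Ier2 (-0.15 to 0.29) and Nptx2 (-0.077 to 0.013). In stage in ABX they were those of Npas4 (-0.20 to 0.25), Ptgs2 (-0.053 to 0.079), Btg2 (-0.27 to 0.34), Ier2 (-0.00062 to 0.32) and Nptx2 (-0.10 to 0.053). In stage in non-ABX they were those of Npas4 (-0.52 to 0.058), Btg2 (-0.30 to 0.14), Gadd45g (-0.39 to 0.23), Ier2 (-0.47 to 0.41) and Nptx2 (-0.15 to 0.025). In the interaction they were those of Arc (-0.13 to 0.43), Npas4 (-0.019 to 0.62), Homer1 (-0.17 to 0.078), Btg2 (-0.22 to 0.38), Gadd45b (-0.096 to 0.10), Dusp1 (-0.26 to 0.14), Ier2 (-0.24 to 0.63) and Nptx2 (-0.052 to 0.15). At these depths the spread between libraries, not counting error, limits what can be told apart.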
